A study of Homo sapiens with 18 samples.

Results

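The nuclear effect of SSB knockdown was measured in 6 of the 18 small RNA libraries of the series, as siSSB nuc replicates 1 to 3 against control nuc replicates 1 to 3. HEK293T is a human embryonic kidney cell line. All cells had been transfected, either with siRNA targeting SSB or with a scramble siRNA, and were harvested 48 h later. Nuclear RNA was then separated from cytoplasmic RNA with a fractionation kit and sequenced as small RNA libraries carrying the label Plus_PNK. The samples were chosen by their labels alone, and the count table was read row by row. A row is a noncoding RNA feature with a start and an end on the genome. Of 175935 rows, 28304 were at most 500 nt long and 2464 of these were distinct, counted as 1 per set of rows with the same 6 nuclear counts, and had a nuclear count. After removal of rows with low counts, 6873 rows were tested, of which 1152 were distinct and at most 500 nt long. These 1152 features are described first, and longer rows after them.

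SSB encodes La, a mostly nuclear chaperone that binds the U residues that end a fresh transcript of RNA polymerase III (Pol III) and shields them from exonucleases. Its known partners include precursors of tRNAs, 5S rRNA, Y RNAs, vault RNAs and U6 snRNA before their ends are trimmed. RNAs made by RNA polymerase II, such as most snoRNAs, scaRNAs and miRNAs, end in other ways.

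The sequences below are those of the features on which the result turns, read from hg38 over the interval and strand of the table. The intervals can extend past the annotated RNA. In the first 8, capitals mark every run of at least 4 T in the last 50 bases, the DNA letters of a terminal U run. SNAR-A14 is at chr19:50106995-50107159 (minus strand), SNAR-B1 at chr19:50139097-50139262 (minus strand) and SNAR-C4 at chr19:47939516-47939680 (plus strand). VTRNA1-1, VTRNA1-2 and VTRNA1-3 lie on the plus strand of chromosome 5 at chr5:140711251-140711398, chr5:140718901-140719038 and chr5:140726134-140726271. The tRNA-like gene tRX-Cys-NNN-4-1 is at chr7:149628128-149628260 (plus strand) and tRNA-Lys-TTT-1-2 at chr6:28951004-28951126 (plus strand).
SNAR-A14: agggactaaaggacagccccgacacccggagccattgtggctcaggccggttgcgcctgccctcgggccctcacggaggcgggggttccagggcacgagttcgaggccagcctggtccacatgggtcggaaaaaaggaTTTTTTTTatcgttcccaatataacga
SNAR-B1: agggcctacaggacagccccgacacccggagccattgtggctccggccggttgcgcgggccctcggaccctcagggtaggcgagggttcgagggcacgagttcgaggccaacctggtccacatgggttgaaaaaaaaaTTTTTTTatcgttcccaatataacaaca
SNAR-C4: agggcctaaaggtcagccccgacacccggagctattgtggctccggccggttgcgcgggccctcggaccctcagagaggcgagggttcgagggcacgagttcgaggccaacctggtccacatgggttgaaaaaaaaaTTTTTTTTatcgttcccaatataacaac
VTRNA1-1: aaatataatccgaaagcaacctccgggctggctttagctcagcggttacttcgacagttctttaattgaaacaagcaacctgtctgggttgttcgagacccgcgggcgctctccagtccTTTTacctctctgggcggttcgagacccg
VTRNA1-2: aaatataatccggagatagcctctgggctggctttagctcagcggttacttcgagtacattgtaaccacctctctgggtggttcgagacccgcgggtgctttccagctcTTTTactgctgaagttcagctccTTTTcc
VTRNA1-3: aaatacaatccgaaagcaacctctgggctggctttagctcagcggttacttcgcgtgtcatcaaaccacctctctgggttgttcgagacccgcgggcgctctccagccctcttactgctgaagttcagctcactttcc
tRX-Cys-NNN-4-1: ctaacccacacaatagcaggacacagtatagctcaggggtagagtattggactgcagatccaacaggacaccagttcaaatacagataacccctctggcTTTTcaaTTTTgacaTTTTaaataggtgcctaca
tRNA-Lys-TTT-1-2: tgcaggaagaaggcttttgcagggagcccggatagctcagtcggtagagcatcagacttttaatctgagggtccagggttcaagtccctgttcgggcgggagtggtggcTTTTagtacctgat

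On the annotated strand of the row, a run TTTT was found in the last 50 bases of 548 of the 1152 features (47.6%). It was found in 360 of 478 features in Pol III classes (75.3%) and in 188 of 674 in the other classes (27.9%). The other strand was not searched. All 18 snaR features held such a run. Among the 21 features called below, 20 did (95.2%), which describes features of few families and was not tested.

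Whole-library values bear on these results as follows. Column sums were 98928007 to 158244813 counts in the 6 nuclear libraries, and sums over the RNA classes, in which overlapping rows of identical counts are taken once, were 5111512 to 7688435. Of the class sum, snoRNAs and scaRNAs took 78.7% to 85.5% in nuclear and 8.16% to 12.1% in cytoplasmic libraries, and mitochondrial tRNAs 0.216% to 0.319% and 2.23% to 4.80%. MALAT1 and NEAT1, known as nuclear RNAs, went against the label on this scale, with 18.4 to 64.2 and 33.6 to 77.9 counts per 1000000 of the class sum in nuclear libraries and 140 to 238 and 155 to 213 in cytoplasmic ones, and 7SL shares overlapped between the fractions. In nuc, MALAT1 was at 0.74 ± 0.27 (adjusted p = 0.249). The targeted mRNA is not measured by these libraries. The row HSALNG0020274, which overlaps exons of SSB and METTL5, had 5, 1 and 4 counts in control nuc and 13, 5 and 14 in siSSB nuc, too few to be tested, and 25 to 32 counts in control cyto against 983 to 3304 in siSSB cyto. A fall of the target is therefore not seen in these rows, and the source of these counts was not tested.

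Across the nuclear comparison, 26 of 6873 rows (0.378%) passed an adjusted p of 0.05 in edgeR's quasi-likelihood test with Benjamini-Hochberg adjustment, 2 higher and 24 lower in siSSB nuc. Among the distinct features of at most 500 nt, 20 of 1152 were called lower (1.74%) and 1 was called higher. Of these 21, 15 were snaR copies, and the other 6 were VTRNA1-1, VTRNA1-2, tRX-Cys-NNN-4-1, tRNA-Lys-TTT-1-2, tRNA-Tyr-GTA-3-1 and SNORD36C. Pol III classes gave 20 of the 21 and 478 of the 1152 features tested (41.5%). Many snaR copies share reads, so these 20 are not independent. Without snaR and vault RNA, the 457 Pol III features gave 2 lower calls and 1 higher call. Counts per 1000000 counts of the library (CPM), scaled by the TMM method, did not overlap between the groups for any of the 21, as for 251 of all 1152 (21.8%). With an unadjusted p under 0.05, 192 features were lower (16.7%) and 35 were higher (3.04%). The balance was the other way over all 6873 rows, with 589 higher and 370 lower, and over the 5684 rows longer than 500 nt, with 552 higher and 177 lower. Under library-size scaling 1408 of the 1479 rows at that p were higher. The median log2 fold change was 0.08 over all 6873 rows and -0.21 over the 1152 features, of which 816 were below 0. Under library-size scaling 456 of the 1152 were below 0, so that a small negative value has no fixed direction.

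The calls of single features rested on 1 library and on the scaling. Without siSSB nuc replicate 2, none of the 26 rows was called by edgeR, although 696 rows had an unadjusted p under 0.05, and without siSSB nuc replicate 1 the count of rows was 17. This second siSSB replicate had a TMM factor of 1.40, against 0.859 to 1.03 in the other 5 nuclear libraries. Scaling to the library size alone, to the sum of all RNA classes or to the snoRNA total moved the median of all rows by 0.35, 0.31 and 0.29 on the log2 scale and left no row called, with 1479, 1410 and 1227 rows at an unadjusted p under 0.05, while DESeq2 called 37 rows. Scaling to the miRNA total moved the median by 0.24 and gave 5 higher and 19 lower calls. All 26 rows had the same direction under each of these settings and without each of the 6 libraries. The totals of snaR-A, snaR-B to snaR-I, vault RNA and tRNA-like genes, given beside their features, were called under all 18 alternatives. Their p-values were adjusted over 19 class totals only, and those of single features over all rows tested. The vault RNA and tRNA-like totals held mostly the reads of VTRNA1-2 and tRX-Cys-NNN-4-1. Calls kept by a total and lost by its features therefore do not show that the total is more stable, since the number of tests differed.

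**Figure D1:**
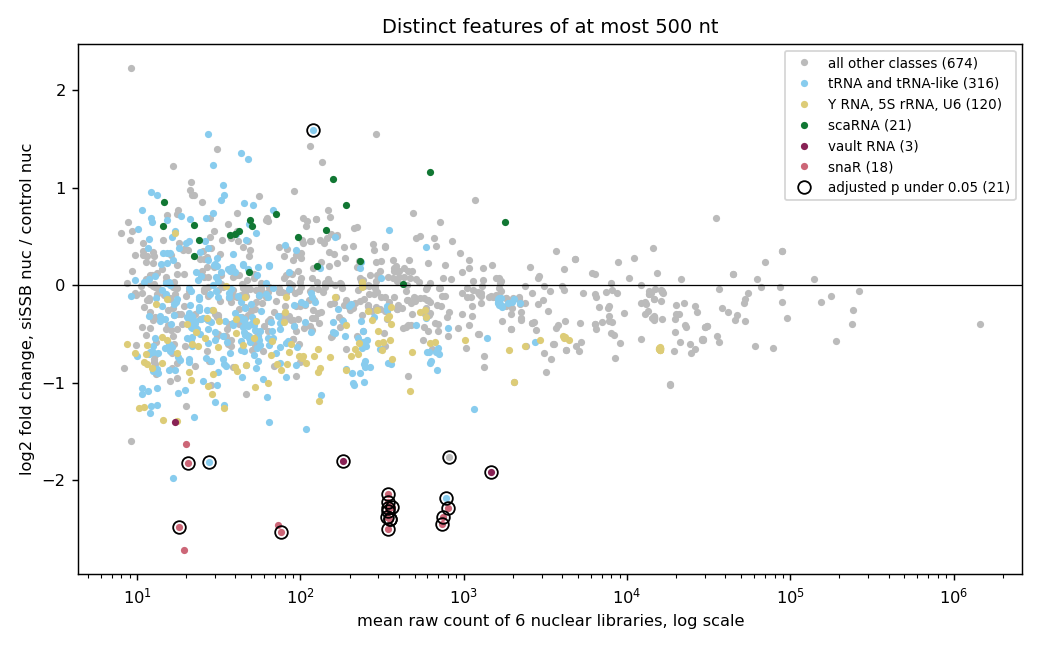
Log2 fold change (siSSB nuc over control nuc, vertical axis) against the mean raw count of the 6 nuclear libraries (horizontal, log scale) for 1152 distinct features of at most 500 nt, coloured by group, with the 21 called features circled. The snaR and vault RNA features all lie below -1, where some tRNA, Y RNA, 5S rRNA and U6 features lie as well.

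The snaR RNAs, short Pol III transcripts encoded in clusters on chromosome 19, had the lowest class medians of log2 fold change, -2.30 for snaR-A and -2.51 for snaR-B to snaR-I. The snaR-A total, the sum of 14 rows, had 9259, 4914 and 12773 counts in control nuc replicates 1, 2 and 3 and 1490, 2331 and 1892 counts in siSSB nuc. Every siSSB library was below every control library, and in such bulk libraries fewer expressing cells and less RNA per cell cannot be told apart. In CPM the total was 77.1 ± 41.2 (SD, n = 3) in control nuc and 15.3 ± 3.07 in siSSB nuc. This was a 5.04-fold decrease (log2 fold change -2.33 ± 0.35 SE, adjusted p = 9.50e-05 over 19 class totals, edgeR). The total was called under all 18 alternatives, between -2.63 and -1.88 when 1 library was left out.

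All 14 snaR-A copies passed the count filter, and 13 were called, between -2.49 and -1.83. The 9 SNAR-A14 copies on the minus strand hold 165 identical bases each, so their reads cannot be assigned to 1 copy, and their 9 log2 fold changes (-2.49 to -2.14) are not separate results. The copy printed above had 570, 343 and 771 counts in control nuc and 95, 137 and 115 in siSSB nuc (-2.37 ± 0.35, adjusted p = 0.00474). It lies in an intron of the lncRNA gene ENSG00000287001 on the same strand. SNAR-A1 at chr19:47918406-47918568 had 1313, 568 and 1811 counts in control nuc and 166, 319 and 272 in siSSB nuc, with no overlap (-2.38 ± 0.42, adjusted p = 0.0112). The copy that was not called, SNAR-A13 at chr19:47944899-47945061, had 30, 32 and 27 counts against 20, 5 and 5 (-1.63 ± 0.44, adjusted p = 0.146).

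The related snaR-B to snaR-I RNAs were scarcer. Their total had 197, 642 and 232 counts in control nuc and 41, 69 and 90 in siSSB nuc, again without overlap. It was 5.61-fold lower (-2.49 ± 0.46, adjusted p = 0.000266) and was called under all 18 alternatives. SNAR-B1, in an intron of the same lncRNA gene, had 71, 232 and 82 counts in control nuc and 17, 23 and 30 in siSSB nuc (-2.53 ± 0.46, adjusted p = 0.0134), and SNAR-C4 had 24, 43 and 25 against 3, 6 and 8 (-2.48 ± 0.44, adjusted p = 0.0124). The second SNAR-B1 copy, at chr19:50133724-50133889, and SNAR-C3 had log2 fold changes of -2.46 and -2.71 and adjusted p-values of 0.0662 and 0.0848.

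Control nuc replicate 2 stood apart within this family. Its ratio of snaR-A to snaR-B to snaR-I counts was 7.65, against 47.0 and 55.1 in the other control nuc libraries and 21.0 to 36.3 in siSSB nuc. It held the lowest control count of snaR-A and the highest of snaR-B to snaR-I. Without it, the log2 fold changes were -1.74 for snaR-B to snaR-I and -2.63 for snaR-A, and both were still called.

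**Figure D2:**
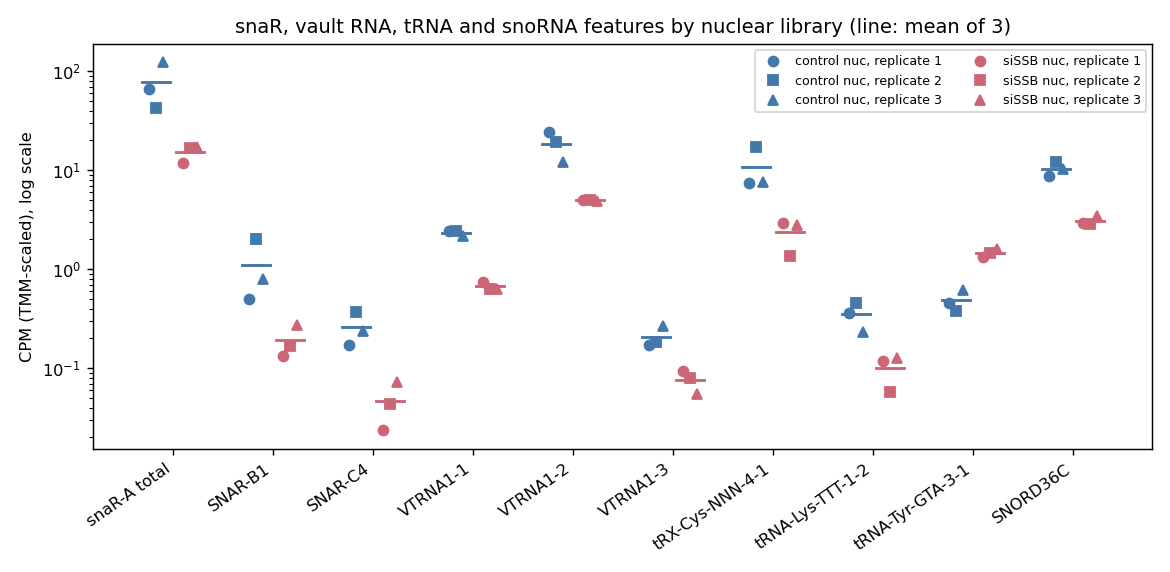
TMM-scaled CPM (log scale) of the snaR-A total and 9 features in each nuclear library, with marker shape giving the replicate, blue for control nuc, red for siSSB nuc and a line at the mean of 3. The red points lie below the blue points for every item except tRNA-Tyr-GTA-3-1, for which they lie above.

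Vault RNAs, the small Pol III RNAs of the vault particle, fell too, with 2 of 3 called. VTRNA1-1 had 344, 278 and 224 counts in control nuc and 95, 88 and 69 in siSSB nuc. Its level was 2.34 ± 0.162 CPM against 0.672 ± 0.0672 CPM, a 3.48-fold decrease (-1.80 ± 0.27, adjusted p = 0.00474). VTRNA1-2, the most abundant, had 3429, 2210 and 1273 counts against 635, 689 and 532 (-1.91 ± 0.31, adjusted p = 0.00585). Neither RNA overlapped between the groups, and the 3 siSSB libraries were close together, at 4.95 ± 0.0843 CPM for VTRNA1-2. VTRNA1-3 was scarce, with 24, 21 and 28 counts against 12, 11 and 6, and was not called (-1.40 ± 0.37, adjusted p = 0.135). Its interval is also the only 1 of the 3 without a run TTTT in the last 50 bases, a description of a single locus. The vault RNA total was -1.89 ± 0.30 (adjusted p = 9.50e-05), called under all 18 alternatives and -2.16 to -1.74 when 1 library was left out. VTRNA2-1 was at 0 counts in all 6 nuclear libraries.

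Among the tRNA-like genes, named tRX for copies that depart from a working tRNA, the counts came mostly from tRX-Cys-NNN-4-1. It had 1052, 1976 and 789 counts in control nuc and 370, 189 and 310 in siSSB nuc, where all 3 libraries were below the lowest control. The decrease was 4.53-fold (-2.18 ± 0.39, adjusted p = 0.0131). tRX-Glu-NNN-2-1 and tRX-Tyr-NNN-1-1 had log2 fold changes of -0.64 and -0.87 and were not called (adjusted p = 0.371 and 0.339). The tRNA-like total was -1.98 ± 0.36 (adjusted p = 0.000266) and was called under all 18 alternatives.

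**Figure D3:**
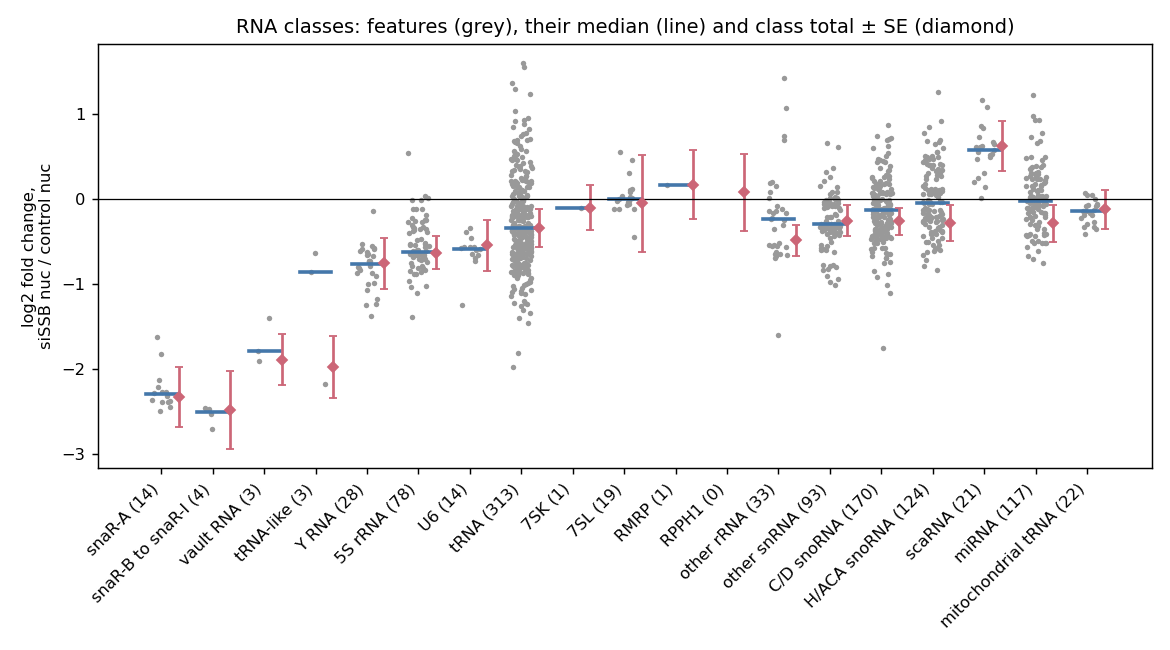
Log2 fold change (siSSB nuc over control nuc) of distinct features of at most 500 nt in each RNA class (grey points, number in brackets), their median (blue line) and the class total with its SE (red diamond). The snaR, vault RNA and tRNA-like totals lie near -2, the Y RNA, 5S rRNA and U6 totals between -0.76 and -0.55, and scaRNA features at or above 0. RPPH1 has a total only, since its row shares its counts with an earlier row.

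Nuclear-encoded tRNAs gave few calls among features and none among totals. Of 313 distinct tRNA features, 1 was called lower and 1 higher, against 20 and 1 of all 1152 features. At an unadjusted p under 0.05, 67 were lower (21.4%) and 13 higher (4.15%), against 16.7% and 3.04% of all features. The median was -0.35 against -0.21 over all 1152 features. Under library-size scaling these medians were -0.03 and 0.13. The tRNA total had 76824, 56787 and 47626 counts in control nuc and 54115, 41216 and 49936 in siSSB nuc (-0.34 ± 0.22, adjusted p = 0.238), and its log2 fold change was -0.45 to -0.02 under the other scalings. None of the 22 isotype totals was called by edgeR, with 2 at an unadjusted p under 0.05, the totals of tRNA-Gly (-0.76 ± 0.26, adjusted p = 0.231) and tRNA-Glu (-0.64 ± 0.27, adjusted p = 0.350). Of 29 tRNA-Gly features 25 were below 0 and 4 above, and all 17 tRNA-Glu features were below 0. Copies of these genes share reads, so these features are not independent. Totals ranged from -0.76 for tRNA-Gly to 0.44 for tRNA-Met, and 19 of 22 were below 0, against 9 of 22 under library-size scaling. The spread between single genes of an isotype was wider: tRNA-Lys features ran from -1.98 to 0.87 and tRNA-Tyr features from -1.24 to 1.59.

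The row of tRNA-Lys-TTT-1-2 on chromosome 6 was the tRNA feature called lower. It had 51, 53 and 24 counts in control nuc and 15, 8 and 14 in siSSB nuc (-1.81 ± 0.37, adjusted p = 0.0400). It kept its call without control nuc replicate 3 or siSSB nuc replicate 3 only, among the 6 libraries left out in turn. Further rows of the same name were not called and did not share a direction. They were at -1.10 on chromosome 11, -0.86 on chromosome 17, and -0.45 and 0.69 on chromosome 1 (adjusted p = 0.251 to 0.551). Features next in the order of p included tRNA-Lys-TTT-6-1 (-1.98, adjusted p = 0.0925), tRNA-Lys-TTT-9-1 (-1.13, adjusted p = 0.106) and tRNA-Asn-GTT-10-1 (-1.47, adjusted p = 0.0759). tRNA-Gly-CCC-4-1, which was more abundant, had 1841, 1387 and 1630 counts in control nuc and 759, 574 and 747 in siSSB nuc (-1.27 ± 0.29, adjusted p = 0.0982). tRNA-Ala-TGC-7-1 and tRNA-Asn-GTT-24-1 were at -1.35 and -1.40 (adjusted p = 0.106 for each). tRNA-Gln-TTG-1-1 lay on the other side, with 26, 20 and 25 counts against 66, 55 and 68 (1.36 ± 0.30, adjusted p = 0.0853).

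tRNA-Tyr-GTA-3-1, at chr6:26577079-26577217 on the plus strand, was the feature of at most 500 nt that rose. It had 64, 44 and 64 counts in control nuc and 167, 203 and 175 in siSSB nuc. The 3 siSSB libraries were all above the controls, at 1.46 ± 0.140 CPM against 0.484 ± 0.119 CPM, a 3.02-fold increase (1.59 ± 0.28, adjusted p = 0.0124). With 1 library left out it was still called only without control nuc replicate 3, at log2 fold changes of 1.44 to 1.74 over the 6. The 10 other tRNA-Tyr features had log2 fold changes between -1.24 and 0.24, none called (smallest adjusted p = 0.249), and the tRNA-Tyr total was -0.01 ± 0.27.

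Genes of the tyrosine tRNA family carry an intron. The sequence of tRNA-Tyr-GTA-3-1 is set here against that of tRNA-Tyr-GTA-6-1 at chr6:26594849-26594987 (plus strand), the row of the same length with the fewest differences, with capitals at the bases that differ.
tRNA-Tyr-GTA-3-1: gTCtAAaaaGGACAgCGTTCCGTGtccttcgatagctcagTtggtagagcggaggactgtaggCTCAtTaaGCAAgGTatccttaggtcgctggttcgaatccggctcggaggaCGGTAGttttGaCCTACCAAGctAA
tRNA-Tyr-GTA-6-1: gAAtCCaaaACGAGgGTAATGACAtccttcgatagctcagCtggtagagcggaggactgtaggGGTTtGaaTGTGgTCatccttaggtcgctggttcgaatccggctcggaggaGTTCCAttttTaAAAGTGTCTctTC
They differed at 48 of 139 positions, counted from the 5′ end of the row. Of these, 18 lay in positions 2 to 24, 1 at position 41, 11 in positions 64 to 78 and 18 in positions 115 to 139. The first and last of these stretches fall in the outer 25 nt of the row, where intervals can extend past the annotated RNA. The 48 differences therefore need not all lie in the RNA, and between those ends the rows differed only at position 41 and in positions 64 to 78. tRNA-Tyr-GTA-6-1 had 63, 24 and 47 counts in control nuc and 62, 38 and 53 in siSSB nuc, which overlapped (0.16 ± 0.34, adjusted p = 0.858). Which bases of a row its reads covered is not given by the counts.

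**Figure D4:**
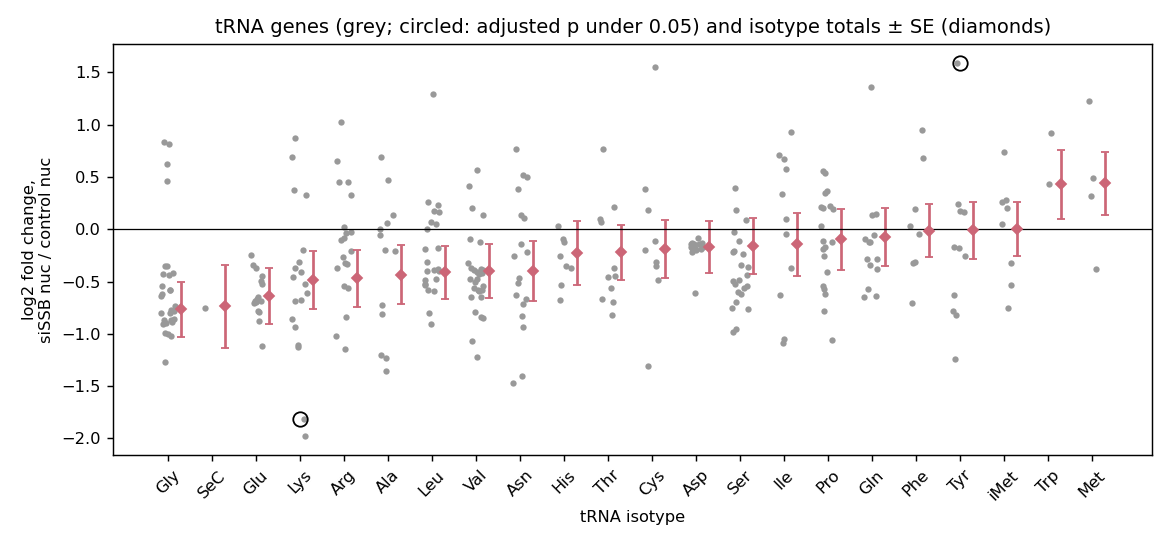
Log2 fold change (siSSB nuc over control nuc) of distinct tRNA features by isotype (grey points, called features circled) and of each isotype total with its SE (red diamonds), ordered by the total. The totals run from -0.76 for Gly to 0.44 for Met, and the circled features are tRNA-Lys-TTT-1-2 and tRNA-Tyr-GTA-3-1.

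The remaining Pol III RNAs showed smaller differences. For Y RNAs, the RNA part of Ro particles, all 28 distinct features were below 0, with a median of -0.76, 17 at an unadjusted p under 0.05 (60.7%, against 16.7% of all features) and none called. The Y RNA median was -0.87 to -0.43 under the other scalings, with at most 1 feature above 0. RNY5 had 4352, 2003 and 1740 counts in control nuc and 1847, 982 and 1221 in siSSB nuc (-0.99 ± 0.33, adjusted p = 0.234). RNY3 was at -1.08 ± 0.30 (adjusted p = 0.170), and RNY4 and RNY1, whose groups overlapped, were at -0.67 and -0.56. The Y RNA total was -0.76 ± 0.30 (adjusted p = 0.0615), and -0.45 under library-size scaling. Y RNA copies and pseudogenes share reads, so these 28 features are not independent.

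For 5S rRNA, the ribosomal RNA that Pol III makes, 75 of 78 features were below 0 and 33 were lower at an unadjusted p under 0.05 (42.3%). Under library-size scaling 55 of 78 were below 0 and the median was -0.25. RNA5S8, the most abundant, was at -0.65 ± 0.24 (adjusted p = 0.251). The 5S rRNA total had 373403, 379272 and 261827 counts in control nuc and 279287, 241583 and 164578 in siSSB nuc. In CPM all siSSB libraries were below the controls, and the total fell 1.55-fold (-0.64 ± 0.20, adjusted p = 0.0197). The call was lost under every scaling but DESeq2 size factors, the log2 fold change being -0.75 to -0.27 over the 5 scalings, and without control nuc replicate 2 (-0.52, adjusted p = 0.134) or siSSB nuc replicate 3 (-0.58, adjusted p = 0.0623). The other rRNAs, which RNA polymerase I makes, had a total of -0.49 ± 0.18 (adjusted p = 0.0461), a call that was lost in 4 of the 6 fits without 1 library (without control nuc replicate 2 or 3 or siSSB nuc replicate 1 or 3, adjusted p up to 0.134). It was called under 5 of the 18 alternatives, and was at -0.24 to -0.13 (adjusted p = 0.562 to 0.732) under the 4 scalings other than DESeq2 size factors. All 14 U6 features, the Pol III spliceosomal RNA, were below 0 (13 under library-size scaling), with a total of -0.55 ± 0.30 (adjusted p = 0.175). Control nuc replicate 2 had 4759 counts of U6, against 2764 and 2622 in the other controls, and without it the total was at -0.20 (adjusted p = 0.654). Under library-size scaling the U6 total was at -0.18.

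RN7SK, which holds back the elongation factor P-TEFb, had 1669, 1530 and 1272 counts in control nuc and 1371, 1700 and 1271 in siSSB nuc, and the groups overlapped (-0.11 ± 0.26, adjusted p = 0.885). The RMRP and RPPH1 totals, the RNAs of RNase MRP and RNase P, were at 0.16 ± 0.41 and 0.07 ± 0.46. RN7SL1 and RN7SL2, the RNA of the signal recognition particle, were at -0.01 ± 0.54 and -0.13 ± 0.60. For these 4 RNAs a library of each group stood apart: RMRP had 5617 counts in control nuc replicate 3 and 8104 in siSSB nuc replicate 2, against 2313 to 3017 in the other 4, and the 7SL total had 16039 and 18837 counts in the same libraries against 3448 to 4534. A change in them was therefore not resolved by 3 libraries a group. Of the 15 listed small Pol III RNAs, 12 were tested and 2 called, both vault RNAs. BCYRN1, RNU6ATAC and VTRNA2-1 had at most 8 counts in any nuclear library and were not tested.

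Among snoRNAs, which guide modification of rRNA, 1 of 170 C/D features and none of 124 H/ACA features were called, against 21 of all 1152 features. SNORD36C at chr9:133350822-133350937 (plus strand) had 1228, 1407 and 1066 counts in control nuc and 368, 396 and 380 in siSSB nuc. The groups lay far apart relative to their spread, at 10.4 ± 1.74 CPM against 3.08 ± 0.337 CPM, a 3.38-fold decrease (-1.76 ± 0.29, adjusted p = 0.00709). The call was lost without siSSB nuc replicate 1 or 2, with an adjusted p of up to 0.197. SNORD36C is encoded inside RPL7A, which also holds SNORD24, SNORD36A and SNORD36B. These neighbours were named after their values were seen. SNORD36A had 1499, 1487 and 1091 counts against 1621, 1656 and 1585 (0.20 ± 0.27), and its CPM overlapped between the groups although the raw counts did not. SNORD36B was at -0.03 ± 0.39 and SNORD24 at -0.76 ± 0.29 (adjusted p = 0.251). No test of the difference between neighbours was made. The sequences of SNORD36C and of SNORD36A (chr9:133350431-133350553, plus strand) are shown with capitals at TGATG in the first 60 bases and at CTGA past the midpoint. These are letters of the C and D boxes, marked wherever they occur. The second CTGA of SNORD36A lies in the last 25 nt of its row, where intervals can extend past the annotated RNA, and need not be a D box.
SNORD36C: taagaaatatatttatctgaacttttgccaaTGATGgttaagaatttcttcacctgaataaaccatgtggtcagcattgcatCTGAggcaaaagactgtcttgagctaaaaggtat
SNORD36A: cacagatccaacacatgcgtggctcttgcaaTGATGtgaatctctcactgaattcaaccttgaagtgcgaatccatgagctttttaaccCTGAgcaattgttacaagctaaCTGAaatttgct

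The 21 distinct scaRNA features, Cajal body RNAs that guide snRNA modification, were all above 0, with a median of 0.57. Under DESeq2 size factors 20 of 21 were above 0, and under library-size scaling all 21, with a median of 0.95. At an unadjusted p under 0.05, 6 were higher (28.6%, against 3.04% of all features) and none was called. SCARNA22 had 218, 373 and 469 counts in control nuc and 935, 1199 and 523 in siSSB nuc, with no overlap (1.16 ± 0.37, adjusted p = 0.219). SCARNA12 had 111, 85 and 98 counts against 199, 280 and 180, again with no overlap (1.09 ± 0.27, adjusted p = 0.117). Rising features were named partly for a lack of overlap. In CPM, 7 of the 21 scaRNA features did not overlap between the groups (33.3%), against 21.8% of all features. The scaRNA total was 0.62 ± 0.29 (adjusted p = 0.121), and 0.52 to 1.00 under other scalings. SNORA79B had 65, 79 and 85 counts against 183, 230 and 173 (1.26 ± 0.29, adjusted p = 0.0913), and SNORA11 was at 0.92 ± 0.33 (adjusted p = 0.249).

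None of the 10 listed Pol II snRNAs was called, and their median was -0.31, from -0.58 for RNU5B-1 to 0.61 for RNU4ATAC, with RNU7-1 at -0.44. Over all 1152 features 20 were called lower (1.74%) and 1 higher, and 16.7% were lower and 3.04% higher at an unadjusted p under 0.05. None of 93 snRNA, 117 miRNA or 22 mitochondrial tRNA features was called, with 7, 4 and 0 at that p. The most abundant row of each was RNU5E-1 (-0.36 ± 0.25), MIR1291 (-0.42 ± 0.23), whose counts lie within SNORA2C, and MT-TV (-0.08 ± 0.26). SNORD44, the most abundant of all, had 1846218, 1671082 and 1339868 counts in control nuc and 1447932, 1063729 and 1274923 in siSSB nuc (-0.40 ± 0.18, adjusted p = 0.334). The totals of miRNA, other snRNA and both snoRNA classes changed sign with the scaling and give no direction.

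Of the 5 called rows longer than 500 nt, 4 lay over called small RNAs. Both rows of lnc-IZUMO2-2 span SNAR-A14 copies (-2.26 and -2.25, adjusted p = 0.00474 for each), lnc-HARS-1 holds the reads of VTRNA1-1 as 99.9% of its counts, and ENSG00000287001.1 holds those of SNAR-B1 as 81.5%. Only HSALNG0103479 on chromosome 14 had no such feature inside. It had 16, 15 and 16 counts in control nuc and 458, 219 and 10 in siSSB nuc, so that replicate 3 did not share the increase (3.74 ± 0.77, adjusted p = 0.0451).

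The same features were set beside the unfractionated (total) and cytoplasmic (cyto) comparisons, which used 6 other libraries each and called 186 of 13883 rows (1.34%) and 55 of 18921 rows (0.291%). Of the 21 nuclear calls, 20 were tested in each. In total, 18 were called, all in the nuclear direction, and in cyto 5 were called, 4 of them in the nuclear direction. The 9 identical SNAR-A14 copies on the minus strand were all called in total and none in cyto. These counts are therefore not of separate results. The vault RNA total was -1.89 ± 0.30 in nuc, -2.55 ± 0.38 in total and -2.25 ± 0.28 in cyto, and SNORD36C was at -1.76, -2.25 and -1.93. The snaR-A total was -2.33 ± 0.35 in nuc, -2.58 ± 0.50 in total and -0.98 ± 0.46 in cyto, where it was not called (adjusted p = 0.277). The nuclear minus cytoplasmic difference of the snaR-A total was -1.47 ± 0.50 (adjusted p = 0.0478, interaction test), a call that was lost without each of the 6 nuclear libraries but control nuc replicate 2 (adjusted p up to 0.194). For tRNA isotypes, 0 of 22 totals were called in nuc, 16 in total and 11 in cyto, and the differences between fractions were not tested for these totals. For the tRNA total as a whole the nuclear minus cytoplasmic difference was 0.10 ± 0.39 (adjusted p = 0.954).

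**Figure D5:**
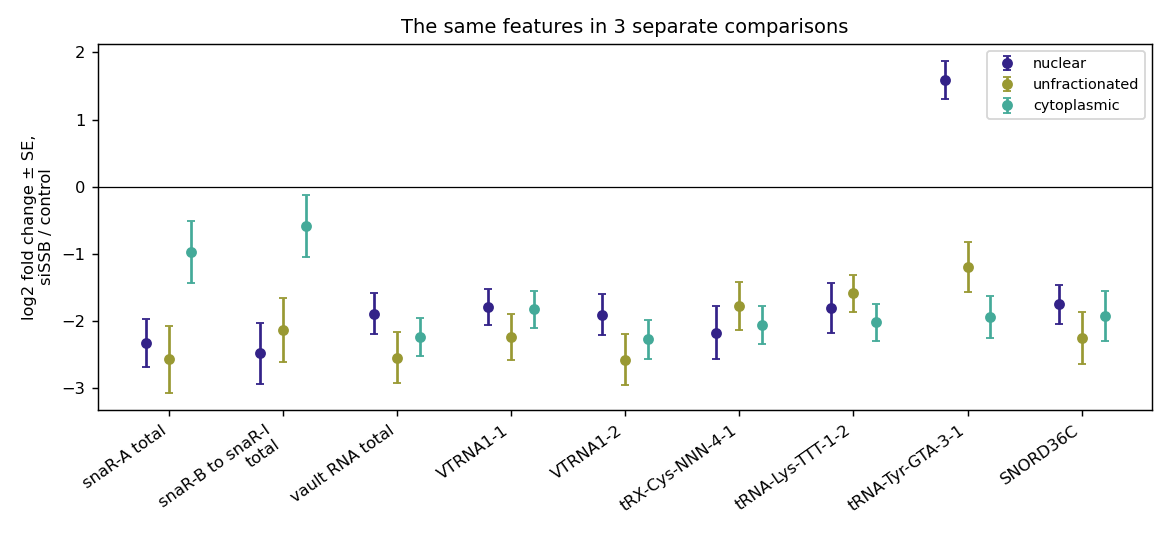
Log2 fold change (siSSB over control) with its SE for family totals and called features in the nuclear, unfractionated and cytoplasmic comparisons, each from its own 6 libraries. The snaR totals lie near -1 or above in cyto and below -2 in nuc and total, the vault RNA values lie close together, and tRNA-Tyr-GTA-3-1 is above 0 in nuc only.

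tRNA-Tyr-GTA-3-1 went in opposite directions in the fractions. It was at 1.59 ± 0.28 in nuc, -1.20 ± 0.37 in total (adjusted p = 0.129) and -1.95 ± 0.31 in cyto (adjusted p = 0.0476). The nuclear minus cytoplasmic difference was 3.40 ± 0.48 (adjusted p = 0.000287) and was called without each nuclear library in turn. Across all rows, 5 of 37493 (0.0133%) differed between nuclear and cytoplasmic effects. No row differed between the nuclear and the total effect in edgeR, with 1320 of 17414 rows at an unadjusted p under 0.05.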

How the data were processed

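Members and gene lists were chosen with earlier results of these data known. The authors deposited 1 table of raw counts, unnormalized whole numbers of reads for each annotated noncoding RNA on hg38. The submitters' processing notes name Bowtie2 and bedtools, and for these libraries multi-mapping and strand use are not given in the sources used here. The study lists software versions for its RNA-seq without naming these libraries. Overlapping rows and near-identical copies share reads, and no molecular identifiers were described. No intervals from counting error alone are given, and each ± is an SD over the libraries of a group or an SE of the fit. Groups and replicate numbers came from the sample labels, and the study's methods describe biological replicates handled on 1 day. For 3 against 3 libraries the smallest two-sided p of an exact permutation is 0.1, so none was used.

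The 6 nuclear libraries were fitted with edgeR 4.0.16 (R 4.3.3, limma 3.58.1): filterByExpr with a minimum count of 10, TMM, glmQLFit and glmQLFTest on group means, with Benjamini-Hochberg adjustment over 6873 rows. SE is the absolute log2 fold change over the square root of F. Sums of 19 classes and 22 tRNA isotypes, identical rows taken once, were added as further rows in a second fit with the same scaling and adjusted over the class totals and the isotype totals apart. Total and cyto libraries were fitted alike, and differences between fractions as interactions. DESeq2 1.42.0 was an alternative. On simulated counts for 6873 rows of this comparison, 93% of rows changed by 1.5 and 100% of those changed by 2 on the log2 scale were recovered, with 18 false calls. Only rows averaging at least 50 counts were changed, and counts were drawn at the spread fitted to each level, not at each row's own. Recovery of scarcer or more variable rows was not simulated.

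The features named were all called features of at most 500 nt, fixed lists of 15 small Pol III RNAs and 10 Pol II snRNAs, the most abundant feature of each class, the 10 uncalled features with the lowest p, the 5 called longer rows, and the 5 rising and 5 falling features with the largest change among those averaging 50 counts or more whose groups did not overlap. Other features were named after their values were seen. Gene context was taken from GENCODE v44 and sequence from hg38. Of 1504 names found once in the table and in GENCODE, 98.9% were on the same strand and 33.0% had both ends 25 nt outside the gene. Alternatives covered scaling, test, filter, identical rows, threshold, replicate number as a block, and each library left out.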

Additional observations from a re-analysis of the deposited data

Results flagged for a closer look

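Features whose knockdown effect differed between the nucleus and the cytoplasm by the interaction test were singled out, and no explanation was tested for any of them. For tRNA-Tyr-GTA-3-1 the nuclear minus cytoplasmic log2 fold change was 3.40 (adjusted p = 0.000287), from 1.59 in nuc and -1.95 in cyto. The snaR-A total differed by -1.47 (adjusted p = 0.0478) and the snaR-B to snaR-I total by -1.99 (adjusted p = 0.0323), with cytoplasmic effects of -0.98 and -0.59. The snaR-B to snaR-I difference was -1.24 (adjusted p = 0.289) without control nuc replicate 2, and lost its call also without siSSB nuc replicate 1 or 2 (adjusted p = 0.154 and 0.105). The snaR-A difference lost its call without each nuclear library but control nuc replicate 2. Scaled to library size alone, or to the class sum, neither of these family differences was called (adjusted p = 0.0875 and 0.0847 for each).

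The row lnc-PRKAB2-5, which lies over the SSB pseudogene SSBL4P, differed by -6.37 (adjusted p = 0.000991), and HSALNG0020274, over exons of SSB, by -4.81 (adjusted p = 0.00788). In nuc, lnc-PRKAB2-5 had 1, 4 and 2 counts in control and 10, 7 and 13 in siSSB, against 3 to 7 and 750 to 2493 in cyto. HSALNG0103479 differed by 5.23 (adjusted p = 0.0138), a value that rests on siSSB nuc replicates 1 and 2. With replicate number as a block its difference was 4.61 and was not called (adjusted p = 0.266), while the other 4 rows kept their call. HSALNG0085924 differed by 3.96 (adjusted p = 0.0138), with 2, 3 and 1 nuclear counts in control and 9, 10 and 5 in siSSB and a cytoplasmic log2 fold change of -2.23. Of the 5 single rows, tRNA-Tyr-GTA-3-1 was called without each nuclear library in turn, and each of the other 4 lost its call without at least 1 library.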

How the results depend on the processing

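The counts of called rows changed with the scaling, the test, the count filter and the libraries used. Of all rows, 26 were called, against 0 with library-size, class-sum or snoRNA scaling, 108 with edgeR's exact test, 67 without the count filter, 40 with the replicate block and 17 at an adjusted p under 0.01. Leaving out 1 library gave 0 to 37. Of the distinct features of at most 500 nt, 21 were called, against 0 with the same 3 scalings, 33 with DESeq2, 38 with the exact test, 38 without the filter and 13 at an adjusted p under 0.01, with 0 to 29 when 1 library was left out. For tRNA isotype totals, 2 were called without the filter, against 0. The nuclear minus cytoplasmic count was 1 to 5 when 1 library was left out, against 5. The nuclear minus total count was 3 with library-size scaling and 3 with the class sum, and 0 to 2 when 1 library was left out, against 0. The 7SL total changed from -0.05 to 1.09 without control nuc replicate 3 (adjusted p = 0.0381), within a range of -0.99 to 1.09.

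Among single values, 164 calls were lost and 65 gained over all alternatives, and 206 values of 41 of 147 results changed sign without being called in either setting, 115 of them on a change of scaling and 50 when a library was left out. All 26 called rows kept their direction wherever they were tested. The share of higher calls was 2 of 26, against 69 of 108 with the exact test, 19 of 67 without the filter, 11 of 40 with the block, 5 of 24 with miRNA scaling and 12 of 37 without siSSB nuc replicate 3. Between control nuc and siSSB nuc, no pairing by equal replicate numbers was seen in correlations, which cannot show how the samples were handled. Deviations from the group means correlated at 0.13, -0.09 and -0.05 for numbers 1, 2 and 3. No control library correlated best with its own number. Pairing of nuclear with cytoplasmic libraries of the same number was not checked, and the interaction test took all libraries as independent. Causes were not tested. Small features near the count minimum are limited by depth, since 3 counts correspond to 0.0214 to 0.0288 CPM.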
